A study of Arabidopsis thaliana with 24 samples.

Results

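The ribosome biogenesis genes described here are 118 genes of Arabidopsis thaliana, out of 20237 genes that have a probe set of their own on the array. A gene was taken in when its Gene Ontology process annotation, in the authors' deposited table for the cultured cells, held a term that starts with ribosome biogenesis. Such a term stood beside 122 probe sets, of which 4 list several genes and were left out, and no remaining gene had more than 1 probe set. The choice used annotation and no measured value, and for 84 members the annotation rests on sequence or structural similarity, for 32 on electronic inference and for 2 on other evidence.

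The study flew dark-grown Arabidopsis of the wild-type cultivar Col-0 on an orbiter and kept matching plates on the ground. Flight cells were hypocotyl-derived, undifferentiated tissue culture cells fixed in orbit, and ground cells were the same culture type fixed in a ground chamber. Flight seedlings were etiolated seedlings fixed in orbit, and ground seedlings were etiolated seedlings fixed in the chamber. Each of the 4 groups had 6 arrays, every sample is labelled 7 days old, and the flight material spent 12 days and 21 hours in orbit before fixation. Cells were spread at about 1 g per 60 mm plate and seeds sown at about 75 per plate, so each RNA sample pools many cells or seedlings. Cells and seedlings also differed before flight, since the seeds waited at 4 °C and the cells at room temperature, and cells sat in canisters B and G and seedlings in canisters A and G. Each array came from its own place in the hardware. The labels do not say that the cells came from separate cultures, so p-values here rest on differences among plates that may be technical.

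A ribosome is built mainly in the nucleolus, where ribosomal RNA is transcribed, modified by small nucleolar RNA-protein particles, cut by nucleases and folded with the help of RNA helicases and GTP-binding proteins, while ribosomal proteins made in the cytosol are imported and added. Plant cells also build separate ribosomes inside chloroplasts and mitochondria, with many of the proteins encoded in the nucleus. Ribosome production is known to be high in growing and dividing tissue and to be held back under stress.

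Most of the 118 members are ribosomal proteins, and fewer act in assembly. By their annotation 62 are proteins of the cytosolic ribosome, 44 of them placed in the large subunit, 13 in the small subunit and 5 in neither. Another 17 are proteins of organelle ribosomes, 15 of the chloroplast and 2 of mitochondria, and 11 are ribosomal proteins with no compartment given. The 26 assembly factors comprise 5 proteins of H/ACA particles or bound to small nucleolar RNA, 7 helicases, 2 GTP-binding proteins and 12 other nuclear or nucleolar proteins. A further 2 fall outside these groups, among them PSBR, a photosystem II subunit that carries a ribosomal annotation. RefSeq gives 29 members a gene symbol, and the others are given by locus code.

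Values are microarray signals scaled by the authors to a mean of 500 per array, taken here as log2(signal + 16). The median over the 118 members on an array was lowest at 9.15, 9.77 at its middle and highest at 10.14 in flight cells, against 9.66, 9.85 and 10.10 in ground cells. In flight seedlings it was 10.96, 11.11 and 11.22, against 9.90, 10.87 and 11.19 in ground seedlings. Every array of flight seedlings and 5 of the 6 of ground seedlings stood above every array of cells. The exception was replicate 1 of ground seedlings at 9.90.

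The arrays differed in brightness in the same way as the materials. An array has 27 probe sets for bacterial controls, and background was set at their 95th percentile. It lay at log2 7.55 to 10.34 in flight cells and 9.62 to 10.26 in ground cells, against 6.55 to 7.43 in flight seedlings and 6.97 to 8.02 in ground seedlings. Of the 118 members, 38 to 101 were above background on an array of flight cells and 36 to 72 on one of ground cells, while 107 to 114 were so in flight seedlings and 94 to 111 in ground seedlings. Only 23 members were above background on all 6 flight cell arrays and 24 on all 6 ground cell arrays, 21 and 22 of them cytosolic ribosomal proteins, and none was an organelle ribosomal protein. A signal in cells under about log2 10 is therefore mostly a bound.

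Several arrays stood apart. Replicate 5 of flight cells had the low background of 7.55 and 76.7% of all probe sets above it, while the median flight cell array had 14.9%. Rank correlation over all probe sets was low among cell arrays, where an array's mean Spearman rho with the rest of its group was 0.203 to 0.322 in flight cells and 0.196 to 0.261 in ground cells. Among flight seedlings it was 0.824 to 0.884, and among ground seedlings 0.640 to 0.774, with replicate 1 the lowest. That array also had a mean log2 signal of 16.48 over 7 heat shock genes, while the other 5 ground seedling arrays had 9.76 to 10.26. The part of these differences in the results below was not tested. Counts and medians over the members in flight against ground, and the counts of lower calls between materials, are given with all arrays and without the one of these 2 arrays that they use.

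**Figure D1:**
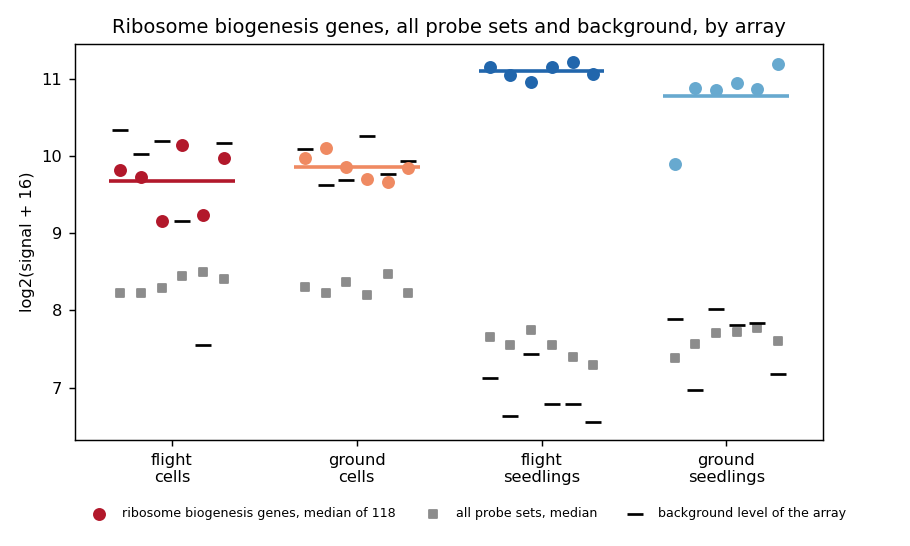
Median signal of the 118 ribosome biogenesis genes (coloured points, 1 per array, lines are group means), median of all probe sets (grey squares) and background level (black dashes) on each of the 24 arrays, as log2(signal + 16). Members' medians were 9.15 to 10.14 in flight cells, 9.66 to 10.10 in ground cells, 10.96 to 11.22 in flight seedlings and 9.90 to 11.19 in ground seedlings, and on most cell arrays they lie near or under the background.

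The first question is whether spaceflight changed these genes in cultured cells. No member passed the test in flight cells against ground cells (limma, adjusted p under 0.05), where 0.0352% of all 22746 probe sets did. At an unadjusted p under 0.05 there were 5 members, beside 5.76% of all probe sets. In the authors' deposited table the smallest q-value of a member is 0.679, so 0 are under 0.05, and 6 have a p-value under 0.05. The share of all probe sets with such a p-value of the authors is not given here. The median flight minus ground difference over the members was -0.17 on the log2 scale, against 0.01 over all probe sets, and without replicate 5 of flight cells it was -0.07. It was -0.34 over the 62 cytosolic ribosomal proteins, of which 18 had a positive difference, -0.41 over the 17 organelle proteins and 0.15 over the 26 assembly factors. Without replicate 5 of flight cells these medians were -0.19, with 22 positive cytosolic proteins, -0.24 and 0.235.

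In cells the fit gave every probe set the same standard error, 0.82 on the log2 scale, so a gene's own spread does not enter its p-value and the smallest p-values are those of the largest differences. With no variance moderation 0 members passed, and the smallest adjusted p was 0.714. The members with the smallest p-values in cells had no adjusted p below 0.82. AT3G11250, a cytosolic ribosomal protein by its annotation, had a lowest, median and highest log2 signal of 5.89, 6.92 and 9.95 in flight cells, against 9.18, 9.38 and 9.84 in ground cells. Its difference was -2.08 ± 0.82 (SE, adjusted p = 0.828). The groups overlapped in replicate values and only 1 flight cell array and no ground cell array was above background. AT3G14600, a large subunit protein, had 6.25, 8.03 and 9.67 in flight cells, against 6.11, 10.43 and 10.79 in ground cells (difference -1.83 ± 0.82, adjusted p = 0.852). RPS28, of the small subunit, had 6.15, 9.47 and 10.79, against 8.42, 11.43 and 11.71 (difference -1.40 ± 0.82, adjusted p = 0.899). Both overlapped between flight and ground. AT1G06720, a nuclear GTP-binding protein, and EMB3105, a chloroplast ribosomal protein, completed the 5 with negative differences, at -1.41 and -1.32.

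On the positive side, RS27A, a protein of the small subunit, had 8.91, 10.02 and 10.65 in flight cells, against 5.24, 8.75 and 9.37 in ground cells. Its difference was 1.75 ± 0.82 (adjusted p = 0.852), and it was above background on 3 flight cell arrays and on none of ground cells. PRPL11, the L11 protein of the plastid ribosome, had 7.25, 9.63 and 10.22, against 5.46, 6.81 and 10.29 (difference 1.99 ± 0.82, adjusted p = 0.844). In both genes the ranges of flight and ground overlapped. AT5G65220, annotated to the chloroplast ribosome, AT5G47930, of the small subunit, and AT3G05060, a nucleolar protein, had differences of 1.72, 1.54 and 1.50. Of the members, 0 had flight and ground cell arrays that did not overlap, where 0.141% of all probe sets were fully higher and 0.127% fully lower in flight cells.

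Seedlings gave smaller spreads and again no call. In flight seedlings against ground seedlings 0 members passed (limma, adjusted p under 0.05), where 0.0176% of all probe sets did (0.0044% higher and 0.0132% lower), and 7 had an unadjusted p under 0.05, beside 8.01% of all probe sets. In the authors' deposited table the smallest q-value of a member is 0.202, so 0 are under 0.05, and 23 have a p-value under 0.05. The share of all probe sets with such a p-value of the authors is not given here, so the 23 cannot be called many or few. The median difference over the members was 0.30, against -0.02 over all probe sets, and 97 of 118 members had a positive difference, which was so for 48.5% of all probe sets. Among the 62 cytosolic ribosomal proteins 56 were positive, with a median of 0.32, among the 17 organelle proteins 13, with a median of 0.415, and among the 26 assembly factors 17, with a median of 0.21. Without replicate 1 of ground seedlings 83 members were positive, the median was 0.12 and 0 members passed. The cytosolic proteins then had 47 positive and a median of 0.12, the organelle ones 10 and 0.21, and the assembly factors 17 and 0.08. Scaling the arrays on the spiked cre controls, a choice made after seeing the data, gave a median of 1.15 over the members and 0.78 over all probe sets. The share of all probe sets above background was also higher in flight seedlings, at 62.2% ± 3.49, against 50.0% ± 8.66 in ground seedlings (SD, n = 6 each, exact permutation p = 0.0173, adjusted over 6 such tests 0.0346). The cre control signal was lower there, by a log2 difference of -0.86 (exact permutation p = 0.00866, 0.0346 adjusted), and so was the array's 25S ribosomal RNA control signal, by -0.94 (exact permutation p = 0.0130, 0.0346 adjusted). The part of these in the members' difference was not tested.

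**Figure D2:**
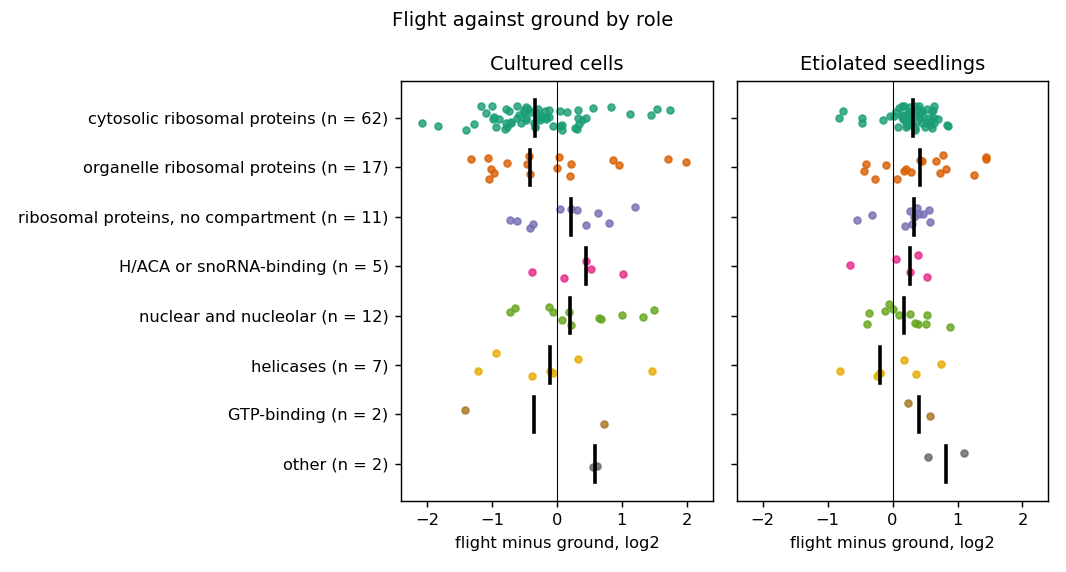
Flight minus ground difference (log2) of every ribosome biogenesis gene by role, in cultured cells (left) and etiolated seedlings (right). Points are genes and black bars are medians. Cytosolic ribosomal proteins have a median of -0.34 in cells (-0.19 without replicate 5 of flight cells) and 0.32 in seedlings (0.12 without replicate 1 of ground seedlings), and 0 of the 118 genes passed the test in either material.

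The 2 members with the smallest p-values in seedlings were chloroplast ribosomal proteins. AT1G64510 had a lowest, median and highest signal of 8.37, 8.72 and 9.17 in flight seedlings, against 6.09, 7.58 and 8.22 in ground seedlings. Every flight array was above every ground array, and the difference was 1.44 ± 0.41 (SE, adjusted p = 0.398). EMB3105 had 10.41, 10.51 and 10.75, against 7.54, 9.60 and 9.87, also without overlap (difference 1.26 ± 0.37, adjusted p = 0.413). RPL9 of the plastid large subunit overlapped, with 9.37, 10.37 and 10.85, against 5.22, 9.56 and 9.78 (difference 1.45 ± 0.67, adjusted p = 0.621). The 5.22 and the 7.54 were both values of replicate 1 of ground seedlings. Without that array the difference was 1.63 in AT1G64510, 0.91 in EMB3105 and 0.72 in RPL9.

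Among the rest, AT3G53890 of the cytosolic small subunit had 11.97, 12.08 and 12.26 in flight seedlings, against 10.36, 11.32 and 11.90 in ground seedlings (difference 0.85 ± 0.31, adjusted p = 0.519). AT1G25260, placed in neither subunit, had 11.45, 11.70 and 12.02, against 10.64, 11.10 and 11.50 (difference 0.63 ± 0.25, adjusted p = 0.578). The first did not overlap between flight and ground, the other did. PSBR had a difference of 1.11 ± 0.48. The 5 smallest p-values with a negative difference were those of the small subunit protein AT5G59240 at -0.82, the helicase AT1G51380 at -0.82, the mitochondrial protein MRPL11 at -0.41, AT5G18180 of the H/ACA class at -0.66 and the nucleolar AT4G22380 at -0.39. In all, 4 members had flight seedling arrays fully above the ground ones, where 0.391% of all probe sets did, and 0 had them fully below, where 0.264% did.

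The difference between the 2 flight effects was tested directly. No member passed (limma over all 24 arrays, smallest adjusted p = 0.571), 0% of all probe sets did, and 7 members had an unadjusted p under 0.05 beside 6.63% of all probe sets. The median over the members, flight effect in cells minus that in seedlings, was -0.44, against 0.04 over all probe sets. It was -0.63 over cytosolic ribosomal proteins, -0.60 over organelle ones and close to 0 over assembly factors. Without replicate 5 of flight cells the medians were -0.31 over all members, -0.48 over cytosolic and -0.57 over organelle proteins, and without replicate 1 of ground seedlings -0.32, -0.43 and -0.42. AT3G11250 had the smallest p, with -2.08 in cells and 0.45 in seedlings (0.21 without replicate 1 of ground seedlings). AT3G14600 had -1.83 in cells and 0.53 in seedlings (0.35 without that array), and EMB3105 -1.32 and 1.26.

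Simulated data with these arrays' spread give a rough measure of what the tests could find among probe sets at large. Noise was drawn independently for each value and no background floor was set, so the shares are not those of the members. A simulated 4-unit log2 change was called for 70% of 100 changed probe sets in cells and 96% in seedlings, and a 2-unit change for 2% in cells and 44% in seedlings. In ground cells against ground seedlings the shares were 97% for 4 units and 14% for 2 units. Only 100 of 22746 probe sets were changed per size, while 38.1% of all probe sets were called in the real comparison. With so many calls a given p-value gets a smaller adjusted p, so these 2 shares do not show what the real comparison could find.

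The next question is how cultured cells differ from seedlings on the ground. In ground cells against ground seedlings 40 of 118 members were lower and 6 higher (limma, adjusted p under 0.05), where 10.5% of all probe sets were called lower and 27.6% higher. At an unadjusted p under 0.05 there were 57 members, beside 48.6% of all probe sets. The median difference over the members was -1.05 on the log2 scale, against 0.77 over all probe sets. Over all probe sets above background on at least 6 arrays of the comparison it was -0.76. That filter keeps 94 of the 118 members, whose own median is not given here. Background was lower in seedlings, so a probe set can pass on the 6 seedling arrays alone, which favours negative differences. Among the cytosolic ribosomal proteins 21 of 62 were lower and 2 higher, among the organelle ones 6 of 17 were lower and 2 higher, and among those with no compartment 2 of 11 were lower and 1 higher. The assembly factors gave 10 of 26 lower and 1 higher. Whether there is less of these RNAs per cell or a smaller share of cells that make them cannot be told apart in such pooled samples.

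The count depends on the scale of the arrays. Scaled on the cre controls, 102 members were lower and 0 higher, where 41.1% of all probe sets were lower and 0.761% higher, and the median of all probe sets was -1.24. With quantile normalization 27 were lower and 1 higher, where 11.4% and 8.09% of all probe sets were. Without replicate 1 of ground seedlings 46 members were lower and 6 higher, and 27 of the lower ones were cytosolic ribosomal proteins. The shares of all probe sets without that array are not given here. All 40 lower members were above background on at least 5 of the 6 ground seedling arrays, and 14 of them on 0 ground cell arrays. On all 12 arrays of the comparison 549 probe sets were above background, with 18.8% lower and 15.7% higher, and 24 members, with 5 lower (20.8%) and 0 higher. The median difference was -0.38 over these 549 probe sets and -0.90 over these 24 members.

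Orbit gave the same comparison on 12 other arrays. In flight cells against flight seedlings 65 of 118 members were lower and 5 higher, where 12.5% of all probe sets were lower and 32.9% higher. At an unadjusted p under 0.05 there were 76 members, beside 53.1% of all probe sets. The median difference was -1.49, against 0.75 over all probe sets. Over all probe sets above background on at least 6 arrays of the comparison it was -0.48. That filter keeps 109 members, whose own median is not given here, and it favours negative differences as on the ground. Among cytosolic ribosomal proteins 44 of 62 were lower, 32 of 44 in the large subunit and 10 of 13 in the small one, and among organelle proteins 7 of 17. Assembly factors gave 8 of 26 lower and 1 higher. On the cre scale 110 members were lower and 0 higher, where 51.7% of all probe sets were lower and 1.81% higher, and the median of all probe sets was -1.76. With quantile normalization 38 were lower and 1 higher, where 14.2% and 12.2% of all probe sets were. Without replicate 5 of flight cells 57 members were lower, 35 of them cytosolic ribosomal proteins. The share of all probe sets without that array is not given here.

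Above background on all 12 arrays of this comparison were 565 probe sets, of which 21.9% were lower and 21.4% higher, and 23 members, of which 14 were lower (60.9%) and 0 higher. The median difference was -0.32 over these 565 probe sets and -1.47 over these 23 members. These shares and medians are a description with no test. In 54 members every flight cell array lay under every flight seedling array, where 8.18% of all probe sets did, and in ground material 14 members did so, where 4.76% of all probe sets did. Fully higher were 2 members in orbit and 2 on the ground, where 8.44% and 4.95% of all probe sets were. The larger number of calls in orbit does not by itself show a larger difference there. No member passed the test of the difference between the flight effects. As 0% of all probe sets passed it, that test does not settle the question.

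The calls in orbit and on the ground shared 34 lower members, 85% of the 40 on the ground and 52.3% of the 65 in orbit. The share of all probe sets called lower in both places is not given here, so this sharing is no result about the members. These 34 comprise 20 cytosolic, 4 organelle and 2 unplaced ribosomal proteins, 4 nuclear proteins, 1 H/ACA protein, 1 helicase, 1 GTP-binding protein and PSBR. Over the 118 members the 2 differences had a Pearson r of 0.78 and the same sign in 109, a description over genes that were measured on the same arrays and are not independent, while the 2 comparisons share no array. The r and the sign agreement over all probe sets are not given here either.

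**Figure D3:**
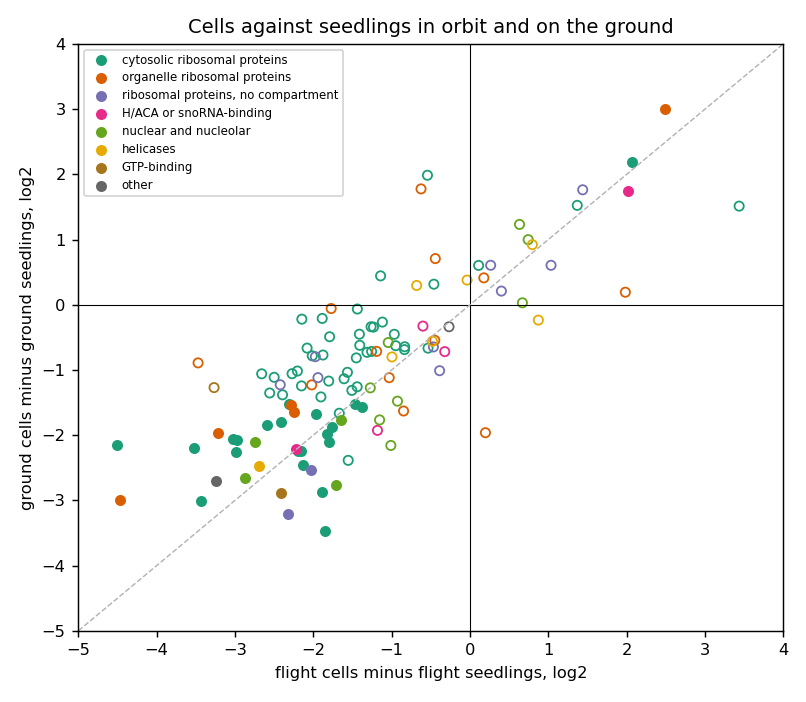
Cells minus seedlings difference (log2) of each ribosome biogenesis gene in orbit (horizontal) and on the ground (vertical). Filled points passed the test in both and open points did not; the dashed line marks equal differences. Most genes, 93 of 118, have negative differences in both places. Of all probe sets, 65.4% have a positive difference on the ground and 63.7% in orbit, and the share negative in both is not given.

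Cytosolic ribosomal proteins supplied the clearest cases. The 5 members of highest mean signal in seedlings were all above background on every array. AT4G26230, of the large subunit, had a lowest, median and highest signal of 11.21, 12.06 and 13.74 in ground cells, against 13.53, 14.84 and 14.95 in ground seedlings (difference -2.25 ± 0.59, SE, adjusted p = 0.00298). It had 11.14, 11.68 and 13.27 in flight cells, against 14.53, 14.80 and 15.37 in flight seedlings (difference -2.98 ± 0.59, adjusted p = 0.000119). The groups overlapped on the ground only through replicate 1 of ground seedlings, at 13.53, and did not overlap in orbit. AT1G52300 was lower on the ground (difference -1.79) and in orbit (-2.41), and so was AT3G60245 (-1.56 and -1.37), all 4 with adjusted p under 0.05.

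Other bright members did not pass in both places. AT5G20290, of the small subunit, had differences of -0.63 ± 0.58 on the ground (adjusted p = 0.388) and -0.95 ± 0.58 in orbit (adjusted p = 0.173). AT2G19730, of the large subunit, had -0.45 and -0.97, and neither passed. AT4G27090 passed in orbit, at -1.51 (adjusted p = 0.0262), and had -1.31 on the ground (adjusted p = 0.0594). ATL5, the L5 protein that binds 5S ribosomal RNA, had -0.34 on the ground and -1.26 in orbit and passed in neither.

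The largest differences belonged to genes dim in cells. RS27A had 5.24, 8.75 and 9.37 in ground cells, against 11.20, 11.74 and 11.94 in ground seedlings (difference -3.46 ± 0.61, adjusted p = 4.12e-05). It was not well above background on any ground cell array, so it was at least 3.34-fold lower there, a bound that sets each cell array's background in place of a dimmer signal. In orbit it was lower, at -1.85 ± 0.61 (adjusted p = 0.0119). AT2G39390, of the large subunit, had 6.77, 9.46 and 11.04 in ground cells, against 11.55, 12.37 and 12.59 in ground seedlings, and differed by -3.01 ± 0.63 there (adjusted p = 0.000343) and by -3.43 ± 0.63 in orbit (adjusted p = 4.36e-05). It was above background on 2 of 6 arrays in each cell group.

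AT3G14600 had the largest difference in orbit. Its signal was 6.25, 8.03 and 9.67 in flight cells, against 12.16, 12.32 and 12.77 in flight seedlings (difference -4.51 ± 0.67, adjusted p = 1.54e-06), above background on 1 flight cell array. On the ground it was lower, at -2.15 ± 0.67 (adjusted p = 0.0103) and above background on 4 ground cell arrays. AT5G60670, of the large subunit, was lower in orbit (-3.52) and on the ground (-2.19). The small subunit protein AT5G47930 was lower on the ground (-2.87), at least 1.33-fold by the bound, and in orbit (-1.89).

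**Figure D4:**
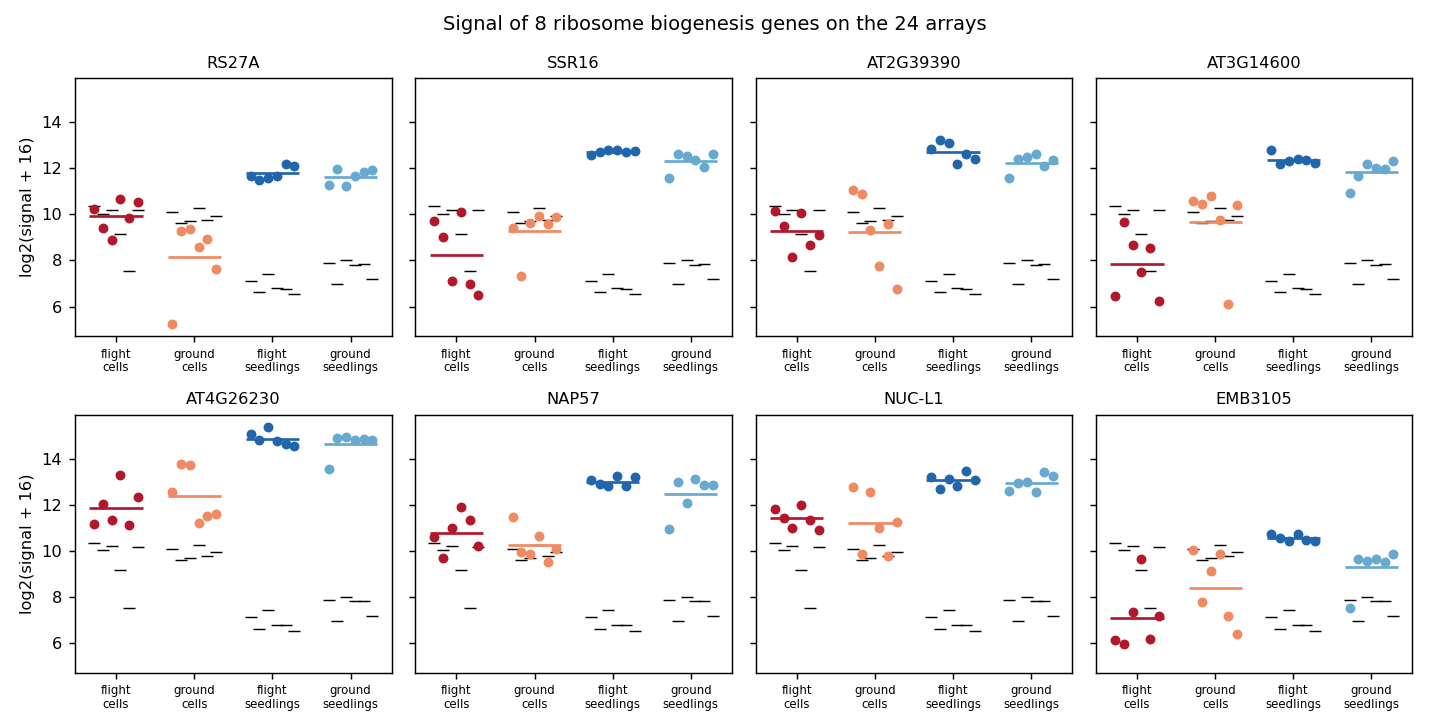
Signal of 8 ribosome biogenesis genes, log2(signal + 16), in flight cells, ground cells, flight seedlings and ground seedlings. Points are arrays, coloured lines group means and black dashes the background level of each array. AT4G26230 stays above background on all 24 arrays, while most cell points of SSR16, RS27A and EMB3105 lie at or under it.

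Organelle ribosomal proteins were rarely measured in cells. SSR16, a small subunit protein annotated to the chloroplast, had 7.34, 9.60 and 9.92 in ground cells, against 11.56, 12.43 and 12.63 in ground seedlings (difference -2.99 ± 0.62, adjusted p = 0.000335, at least 5.25-fold lower by the bound). In orbit it had 6.52, 8.06 and 10.10 in flight cells, against 12.56, 12.71 and 12.77 in flight seedlings (difference -4.46 ± 0.62, adjusted p = 5.26e-07). Neither pair of groups overlapped. EMB3105 was lower in orbit, at -3.47 (adjusted p = 6.77e-05) and had -0.89 on the ground (adjusted p = 0.276), and 1 array of flight cells and none of ground cells was above background. RPL9 was lower in orbit (-3.21) and on the ground (-1.97), above background on 1 flight cell array and no ground cell array. MRPL11 of mitochondria was also lower in both (-2.25 and -1.65), above background on 0 flight cell arrays and 2 ground cell arrays.

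The assembly factors include proteins that modify ribosomal RNA. NAP57, also called CBF5, the pseudouridine synthase of H/ACA particles, had 9.53, 10.02 and 11.45 in ground cells, against 10.96, 12.84 and 13.13 in ground seedlings. Its difference was -2.22 ± 0.57 on the ground (adjusted p = 0.00277) and -2.22 ± 0.57 in orbit (adjusted p = 0.00192), and it was above background on 5 of 6 arrays in each cell group. In orbit its groups did not overlap. AT3G03920, of the same class, was lower on the ground, at -1.93 (adjusted p = 0.016) and had -1.18 in orbit (adjusted p = 0.125). NOP10, another H/ACA protein, had -0.72 and -0.32, and AT5G08180 -0.33 and -0.60, and neither passed. AT5G18180 went the other way, higher in ground cells by 1.74 (adjusted p = 0.0277) and in flight cells by 2.02 (adjusted p = 0.00897), from signals above background on at most 2 arrays of any group.

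Among other nuclear members, NUC-L1, a nucleolin of the nucleolus, was above background on all 24 arrays. It had 9.78, 11.14 and 12.75 in ground cells, against 12.57, 12.97 and 13.42 in ground seedlings, which overlapped (difference -1.76 ± 0.58, adjusted p = 0.0151). In orbit it was lower too, at -1.65 ± 0.58 (adjusted p = 0.0182), without overlap of the groups, while its flight minus ground difference was 0.21 in cells and 0.10 in seedlings. The nucleolar AT3G22660 was lower on the ground (-2.76) and in orbit (-1.71), and so was the nuclear AT2G40360 (-2.66 and -2.87). AT5G14520, known as PESCADILLO, needed for large subunit assembly in yeast and plants, had -0.58 and -1.04 and passed in neither. NUC-L1, PESCADILLO, the H/ACA proteins NOP10 and AT5G08180 and the helicases below were picked for their roles after the values were seen, STRS1 apart.

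Of the 2 GTP-binding proteins 1 was called lower on the ground and 2 in orbit, where 10.5% and 12.5% of all probe sets were. AT1G50920 had 6.64, 9.09 and 9.96 in ground cells, against 10.81, 11.56 and 11.81 in ground seedlings, without overlap (difference -2.89 ± 0.62, adjusted p = 0.000494), and was lower in orbit at -2.42. AT1G06720 was lower in orbit, at -3.27 (adjusted p = 0.000338) and had -1.27 on the ground (adjusted p = 0.145). Of 7 helicases only STRS1, a DEAD-box helicase named for restraining stress responses, was called, lower on the ground (-2.48) and in orbit (-2.70), and it was above background on no ground cell array and on 1 of flight cells. EIF4A-III, which also belongs to the exon junction complex, had -0.56 and -0.48, and DRH1 had 0.30 and -0.68. AT1G16740, a ribosomal protein with no compartment given, was lower on the ground (-3.20), at least 1.62-fold by the bound, and in orbit (-2.33).

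The higher calls in cells all came from dim probe sets and are named here after their values were seen. On the ground they were AT5G51610, AT2G40010, AT3G11250, AT5G27820, AT1G64510 and AT5G18180, and in orbit AT3G48960, AT5G51610, AT2G40010, AT5G18180 and PRPL11. On the cre scale AT1G64510, AT3G11250, AT5G18180 and AT5G27820 turned negative on the ground, and PRPL11, AT2G40010 and AT5G18180 in orbit. None was above background on more than 2 of 6 arrays of the cells in its comparison. AT5G51610, annotated to the chloroplast ribosome, differed most on the ground, by 3.00 ± 0.71 (adjusted p = 0.00132), with 1 ground cell array and no ground seedling array above background. AT3G48960 differed most in orbit, by 3.44 ± 0.70 (adjusted p = 0.000159), with 1 flight cell array and no flight seedling array above background.

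Values of 3 pairs of ribosomal protein gene copies, chosen after the values were seen, were set side by side within each array. Probes of one copy may also bind RNA of the other, and only the change of such a ratio between groups has a meaning. RPL24A was lower in ground cells, at -2.08 (adjusted p = 0.00883), and in flight cells, at -2.97 (adjusted p = 0.000272), while STV1, the other L24 gene, had -0.64 and -0.83 and passed in neither. RPL24A was above background on 2 flight cell arrays and no ground cell array, so it was at least 2.50-fold lower on the ground, and its ratio to STV1 in cells is left out. RPL23AB was lower in ground cells, at -2.39, where RPL23AA had -0.45, but it was above background on 1 ground cell array, and that ratio is left out too. In orbit, with RPL23AB above background on 3 flight cell arrays, their log2 ratio was -1.125 ± 0.73 in flight cells. It was -0.98 ± 0.26 in flight seedlings (SD, n = 6 each, exact permutation p = 0.665, 0.734 adjusted). RPL5B and ATL5 had a log2 ratio of -1.33 ± 0.48 in ground cells, against -0.85 ± 0.35 in ground seedlings (SD, n = 6 each, exact permutation p = 0.0758, 0.227 adjusted over 12 tests). The smallest adjusted p of the 12 tests was 0.208 (exact permutation), that of RPL24A to STV1. No change of a ratio passed, so a difference between copies was not shown.

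Other genes of the pathway that do not carry the term were counted in the same way. Of 45 genes in lists of RNA polymerase I, nucleolar scaffolds, small nucleolar particles, the small subunit processome, large subunit assembly, nucleases and helicases, 11 are members, and of the other 34 none passed in flight against ground in cells or in seedlings. In ground cells against ground seedlings 7 of the 34 were lower and 0 higher, where 10.5% of all probe sets were lower, and in orbit 10 were lower and 0 higher, where 12.5% were lower. NMD3, an export adaptor of the large subunit, was lower on the ground (-2.97) and in orbit (-3.07). FZF, also called REIL2, a zinc finger protein of late large subunit maturation, was lower too (-3.03 and -1.69), and so was NSN1, a nucleostemin-like GTPase (-2.61 and -2.23). FIB1, a fibrillarin that methylates ribosomal RNA, was above background on all 6 arrays of both cell groups and lower on the ground at -1.38 (adjusted p = 0.0433), with -0.84 in orbit (adjusted p = 0.213). The target of rapamycin pathway is known to promote ribosome production: of 5 such genes 3 were lower and 1 higher in ground cells, where 10.5% of all probe sets were lower and 27.6% higher, and 1 was higher in flight cells, where 32.9% were.

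Markers of cell state moved with some groups. Of 7 markers of dividing cells, 0 were called in flight against ground in either material, 0 were called in ground cells against ground seedlings and 1 was higher in flight cells than in flight seedlings. Of these markers 1 in flight cells and 0 in ground cells were above background on at least 3 arrays. In flight seedlings 5 were so and in ground seedlings 4. The lack of calls therefore does not show that the cells divided alike. Of 6 shoot epidermis markers, 5 were above background on at least 3 arrays in flight seedlings and 5 in ground seedlings, and none in either cell group, where the background lay higher. Their mean log2 level was 8.26 in flight cells, 8.05 in ground cells, 9.04 in flight seedlings and 8.29 in ground seedlings. Of these, 1 was lower in ground cells than in ground seedlings and none higher, and 2 were lower and 1 higher in flight cells than in flight seedlings. Of 5 root hair markers 2 were higher in ground cells than in ground seedlings and 3 in flight cells than in flight seedlings, with median differences of 1.87 and 2.52. Their summed signal was 1666 to 8361 in flight cells, 662 to 5899 in ground cells, 377 to 861 in flight seedlings and 676 to 1422 in ground seedlings, while 1 of the 5 in flight cells and none in ground cells was above background on at least 3 arrays. For 2 photosynthesis genes the mean log2 levels in the same order of groups were 7.97, 7.85, 8.49 and 7.18. The part of these markers in the results was not tested.

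Heat shock genes differed between flight and ground in cells. All 7 rose in flight cells against ground cells, with a median difference of 3.99, where 0.0352% of all probe sets were called higher. They had been listed as genes that move with flight in cells, so this count is no independent result. With no variance moderation 0 of all probe sets passed in cells. In seedlings 0 of the 7 were called, where 0.0176% of all probe sets were. Their mean log2 signal was 11.55, 15.86 and 17.17 in flight cells at its lowest, median and highest, against 9.83, 11.19 and 11.93 in ground cells. In flight seedlings it was 10.00, 10.15 and 10.38, against 9.76, 10.10 and 16.48 in ground seedlings. The ground seedling array at 16.48 was the one with the low members' median of 9.90, while the other 5 had members' medians of 10.85 to 11.19. Among flight cells the reverse held, and the 2 arrays with the lowest heat shock means, 11.55 and 13.42, had the lowest members' medians, 9.24 and 9.15, and the other 4 had members' medians of 9.73 to 10.14. In cells the members' medians of flight and ground overlapped although the heat shock genes differed. How far the 2 sets of genes are linked was not tested.

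**Figure D5:**
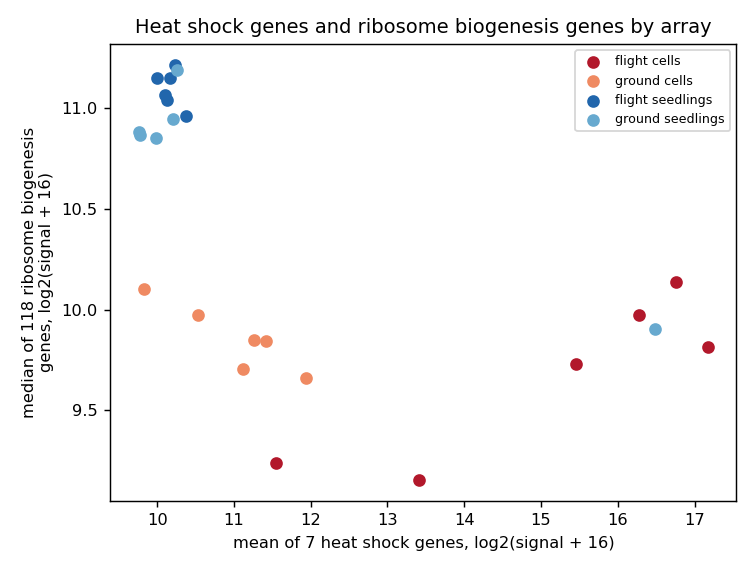
Median of the 118 ribosome biogenesis genes against the mean of 7 heat shock genes, both as log2(signal + 16), for each of the 24 arrays coloured by group. Replicate 1 of ground seedlings, at 16.48 and 9.90, lies with the flight cell arrays and away from the other seedlings.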

How the data were processed

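RNA was amplified and labelled with NuGEN kits, per the labels' protocols, and hybridised to 24 Affymetrix arrays with 22810 probe sets. MAS5 and Affymetrix Expression Console are named in the submitters' processing notes, with no version. The deposited values are signal intensity on a linear scale, with a trimmed mean of 500 on every array (2% left out at each end). The authors' deposited tables also give a p-value, a q-value and a log2 fold change per probe set; the test behind them is not given in the sources used here. These tables also supplied the annotation.

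The 64 control probe sets were left out, and log2(intensity + 16) of the other 22746 was fitted with lmFit and eBayes of limma 3.58.1 under R 4.3.3. P-values were adjusted by Benjamini and Hochberg's method across these probe sets, at a threshold of 0.05. Flight against ground was fitted on the 12 arrays of each material, and the other comparisons on all 24. On log2(signal + 16) the change of dim genes is understated. The number of arrays limits precision. The scaling to one mean hides any change in total RNA, and MAS5 signals near background have little meaning. Exact permutation tests were two-sided (scipy).

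The members, gene lists, tests and roles were chosen with earlier results of these data known. Genes are named by a rule: in each flight comparison the 5 smallest p-values in each direction (none passed), the 8 largest passing differences between materials in each direction that were above background on 3 arrays of the brighter group, the 5 highest mean signals per material, and the 2 largest passing ground differences in each role, which gave 39 genes; 14 more were named after their values were seen. All 118 locus codes matched the RefSeq table (TAIR10.1). Roles were read from the annotation terms, in place of the lists the rule names, since few members are on those lists. Promoter and protein sequences are not used here. The fit was tested on simulated data, with 100 probe sets changed per size. The closing section gives the alternatives.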

Additional observations from a re-analysis of the deposited data

Results flagged for a closer look

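Within groups of 6 arrays, a value was singled out when its gap to the next one exceeded Dixon's critical share of the group's range, which chance passes in about 1 of 20 groups. Of 176 groups tested 23 values were singled out, where chance would give about 8.8, and those groups are not independent. On replicate 5 of flight cells 76.7% of probe sets were above background. On replicate 1 of ground seedlings the members' median was 9.90, and single members were low there: AT1G26880 at 10.03, EMB3105 at 7.54, AT1G52300 at 13.25, AT2G40360 at 6.84, ATL5 at 11.40, RPL9 at 5.22, AT3G60245 at 13.89, AT4G26230 at 13.53, AT4G27090 at 14.34, AT5G20290 at 14.04 and AT5G60670 at 9.11. On replicate 3 of flight seedlings 107 members were above background, PRPL11 was at 4.44 and PSBR at 10.15. Single low values were AT2G19730 on replicate 2 of flight seedlings (12.76), AT3G14600 on replicate 5 of ground cells (6.11), SSR16 on replicate 2 of ground cells (7.34), AT5G59240 on replicate 1 of ground cells (6.39) and AT5G60670 on replicate 3 of flight cells (6.64). Single high values, both on replicate 1 of flight seedlings, were AT3G14600 at 12.77 and AT4G22380 at 9.33.

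For AT3G14600 all 6 flight cell arrays lay under the ground cell mean and all 6 flight seedling arrays above the ground seedling mean. Its flight effect in cells minus that in seedlings was -2.36, which did not pass the test (limma, adjusted p = 0.639).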

How the results depend on the processing

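In flight against ground and in the difference of flight effects, 0 members passed under every alternative run, with any 1 array left out as well. The smallest adjusted p in seedlings was 0.0587 (limma), when arrays were scaled on the spiked cre controls, a choice made after seeing the data. That scaling moved the median of all probe sets to 0.78 and that of the members to 1.15. In cells the same scaling moved the median of all probe sets to 0.34 and that of the members to 0.15. On the ground the lower calls numbered 63 with arrays centred on their median, 24 at an adjusted p of 0.01 and 102 with cre scaling, and 32 to 46 with 1 array left out. Of all 22746 probe sets 8675 were called there in either direction in the main fit. With centring 6685 were, at an adjusted p of 0.01 4763 and with cre scaling 9526. Totals over all probe sets with 1 array left out are not given here. The higher calls numbered 1 with quantile normalization, 1 with centring, 0 among probe sets above background on at least 6 arrays, 1 at an adjusted p of 0.01 and 0 with cre scaling, and 3 to 7 with 1 array left out (3 without replicate 6 of ground seedlings). Those of the main fit were above background on at most 2 ground cell and 3 ground seedling arrays, too few for the filter at 6 arrays. In orbit the lower calls numbered 38 with quantile normalization, 42 at an adjusted p of 0.01, 110 with cre scaling and 52 to 68 with 1 array left out. Of all probe sets 10331 were called in orbit in either direction in the main fit. With quantile normalization 6009 were, at an adjusted p of 0.01 6707 and with cre scaling 12183. The higher calls there numbered 1 with quantile normalization, 1 with centring, 1 among probe sets above background, 3 without variance moderation, 3 at an adjusted p of 0.01, 0 with cre scaling and 4 to 6 with 1 array left out. Cre scaling moved the median of all probe sets to -1.24 on the ground and -1.76 in orbit. It also reversed AT1G64510 (-0.34), AT3G11250 (-0.22), AT5G18180 (-0.39) and AT5G27820 (-0.34) on the ground, PRPL11 (-0.60), AT2G40010 (-0.0536) and AT5G18180 (-0.39) in orbit, and AT4G22380 (0.45), AT4G35490 (0.44) and AT5G18180 (0.0402) for flight in seedlings; with the cre level as a covariate AT5G59240 was 0.24. The causes were not tested. Among named genes that passed, 75 gene and setting pairs on the ground and 71 in orbit no longer did. In canister G alone the members' medians were -1.62 on the ground and -1.85 in orbit, with no test. Each sets 2 cell arrays against 1 seedling array, and the orbit value uses replicate 5 of flight cells. The hardware position as a replicate block gave 0 members in cells and 0 in seedlings. Deviations of same-position arrays correlated at -0.053 to 0.104, so no pairing was seen, though noise among the arrays could hide one. Replicate 6 of flight seedlings has 2 different positions in its labels, so its pair is uncertain. Taking all probe sets of a gene was not run, since no member has more than 1. With the highest control as background, chosen after seeing the data, 15.0 percentage points more probe sets were above it in flight seedlings than in ground seedlings (exact permutation p = 0.00649).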

Other observations

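The 4 probe sets that carry the term but list 2 genes each were outside the 118 members. That of AT1G41880 was lower in ground cells at a difference of -2.13 (adjusted p = 0.00488), and in flight cells, at -2.24 (adjusted p = 0.00239), each against the matching seedlings. For AT4G18100 the differences were -1.01 and -1.31, and for AT5G27140 1.30 and 0.68, and AT2G40590 had -1.03 on the ground. None of these 3 passed in either place. None of the 4 passed in flight against ground in cells or seedlings.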
